A study of Mus musculus with 8 samples.

Results

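The control molar tooth germs of this study were described from 4 of its 8 arrays, all those whose titles name 40-1a or PBS, used jointly as a picture of the developing tooth without blocked Hedgehog signalling. RNA came from the lower molars of embryos of ICR mice, an outbred stock. At embryonic day 14 the pregnant mouse received 1 intraperitoneal injection, and the germs were dissected from the mandible 24 hours later. In the 40-1a group the mother received 10 mg/kg of an IgG1 antibody against β-galactosidase, a bacterial enzyme, which serves as the isotype control. In the PBS group the mother received 1 ml of buffered saline. The 4 other arrays came from mothers given 10 mg/kg of 5E1, an antibody of the same isotype that binds Shh, or 10 mg/kg of cyclopamine, which antagonises Smo. Each group had 2 arrays that the labels call biological replicates, and the labels do not state how many embryos or litters made up a replicate. The labels name no engineered allele in any group.

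The molar germ is built from oral epithelium that folds around a condensation of mesenchyme derived from the neural crest. At the cap stage a cluster of epithelial cells that have left the cell cycle, the enamel knot, secretes Shh and ligands of the FGF, BMP and Wnt families, and the mesenchyme beneath answers with signals of its own. The cells that later deposit dentin and enamel, odontoblasts and ameloblasts, differentiate after this stage.

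Each gene was represented by 1 probe set, that with the highest mean over the control arrays, which gave 18193 genes. Signals are in MAS5 units, a linear fluorescence scale with the same trimmed mean of 500 on every array. Where 4 signals are listed, they stand in the order 40-1a replicate 1, 40-1a replicate 2, PBS replicate 1 and PBS replicate 2. A mean ± SD on the log2 scale is that of log2(signal + 9) over these 4 arrays. Probe sets bind their targets with different strength, so ranks and percentiles order the signals and not the amounts of transcript. The table holds no detection calls. As a low-signal level, the 95th percentile of the mean signals of 77 odorant, vomeronasal, taste and trace amine receptor genes was used, a signal of 80.6. By this level 11544 genes (63.5%) lay above it on all 4 arrays, 2204 (12.1%) on some of them and 4445 (24.4%) on none. The median gene had a signal of 308.4 and the 90th percentile was 2386.

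In several marker lists 1 array stood apart. On 40-1a replicate 2, 24 of 25 markers of basal oral and dental epithelium had their highest signal of the 4 arrays, as had 20 of 22 skeletal muscle genes and 19 of 20 genes of the suprabasal, keratinising oral epithelium that lay above the level on any array. The same array held the lowest signal of 19 of 23 dental mesenchyme markers. Over all 13748 genes above the level on at least 1 control array, 26.9% were highest and 31.6% lowest on it. Among the 200 of these with the largest SD, 34.5% were highest and 29.5% lowest on it. For 40-1a replicate 1 these shares were larger, at 42% and 33%. Other lists had other arrays apart. PBS replicate 1 was highest for 12 of 19 endothelial genes and 12 of 18 macrophage and leukocyte genes. It was also highest for 22 of 34 matrix genes outside the fibrillar collagens and basement membrane, against 24.3% of all genes. 40-1a replicate 1 was highest for 40 of 54 ribosomal protein genes, against 27.6%. In dissected tissue, fewer cells of a type and less RNA per cell cannot be told apart. Over the 11544 genes above the level on all 4 control arrays, the 6 pairs of control arrays correlated at 0.948 to 0.984 (Pearson's r across genes of the log2 values, which are not independent replicates), and pairs of a control and a blocked array at 0.939 to 0.987. For 40-1a replicate 2 the highest r was 0.987 with cyclopamine replicate 2, then 0.982 with 5E1 replicate 2. Its r was 0.975 with PBS replicate 2 and 0.948 with 40-1a replicate 1.

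The strongest signals belonged to the machinery of protein synthesis. Of the 25 genes with the highest mean, 19 encode ribosomal proteins, and the others were Eef1a1, the factor that delivers aminoacyl-tRNA to the ribosome, the cytoskeletal genes Actg1, Actb and Tmsb10, Tpt1 and the fatty acid binding protein Fabp5. Rps29 ranked first, with signals of 55357, 37625, 40639 and 35236. Eef1a1 read 48336, 30664, 35071 and 29413. Tpt1 read 46673, 27421, 31804 and 27971. All 25 were highest on 40-1a replicate 1, and their highest array exceeded their lowest by 1.25 to 1.70 times. These 25 genes held 3.82 to 5.41% of the summed signal of an array, and the 100 highest held 11.4 to 14.7%. Among the 100 highest were 36 ribosomal proteins, 7 subunits of the respiratory chain, 6 cytoskeletal proteins, 5 translation factors and 3 heterogeneous nuclear ribonucleoproteins.

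Outside these families and those of the histones and the proteasome, Tpt1, Fabp5 and Hmgn1 came first, at ranks 11, 24 and 31. Some genes of tissue structure and development followed. Ctnnb1, which encodes β-catenin, the cytoplasmic partner of cadherins and effector of Wnt signalling, ranked 37 with signals of 33327, 21690, 25698 and 21292. Col3a1, a fibrillar collagen of loose connective tissue, ranked 42 with 29289, 17981, 25932 and 22090, lowest on 40-1a replicate 2. Sox4, an HMG box transcription factor of embryonic progenitors, ranked 49 with 26720, 19204, 20798 and 20284. Krt5, the keratin of basal epithelial cells, ranked 61 with 18431, 26151, 16654 and 17685 and was highest on 40-1a replicate 2. The rest of the 15 leading genes outside the families were Tpt1, Fabp5, Hmgn1, Naca, Dynll1, Npm1, Akr1a1, Arf1, Hspa8, Ywhae and Oaz1. Apart from Fabp5, they serve chromatin, protein folding, transport and metabolism in most cells.

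Several signalling pathways had ligand, receptor and target genes above the level. Ligand genes of the FGF, Wnt and Hedgehog families had the lower signals. Among all genes 63.5% lay above the level on all 4 arrays. Of 14 FGF ligands 6 (42.9%) did so, against 5 of 5 FGF receptors and 10 of 10 feedback genes. Of 19 Wnt ligands 11 (57.9%) did, near the share of all genes. The counts were 15 of 16 for Wnt receptors and 22 of 23 for Wnt inhibitors and targets. For BMP the counts were 6 of 8 ligands (75%), 5 of 6 receptors and 11 of 12 inhibitors. For Hedgehog they were 3 of 6 genes of ligands and their release, 9 of 10 of reception and transduction and 13 of 14 targets. The median member stood at the 35.7th percentile of signal for FGF ligands, the 38.2nd for Wnt ligands and the 39.0th for Hedgehog ligands and release, against the 50.0th for all genes. BMP ligands had a median at the 55.1st percentile, above that of all genes, and BMP receptors at the 80.3rd. FGF receptors had a median at the 78.2nd percentile, Wnt receptors at the 74.7th and Hedgehog targets at the 81.0th. These are descriptions of probe set signals, since a probe set that binds weakly lowers a gene's place. With the mean of a gene's probe sets in place of the strongest, the median percentile of a list moved by up to 21.8 points.

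**Figure D1:**
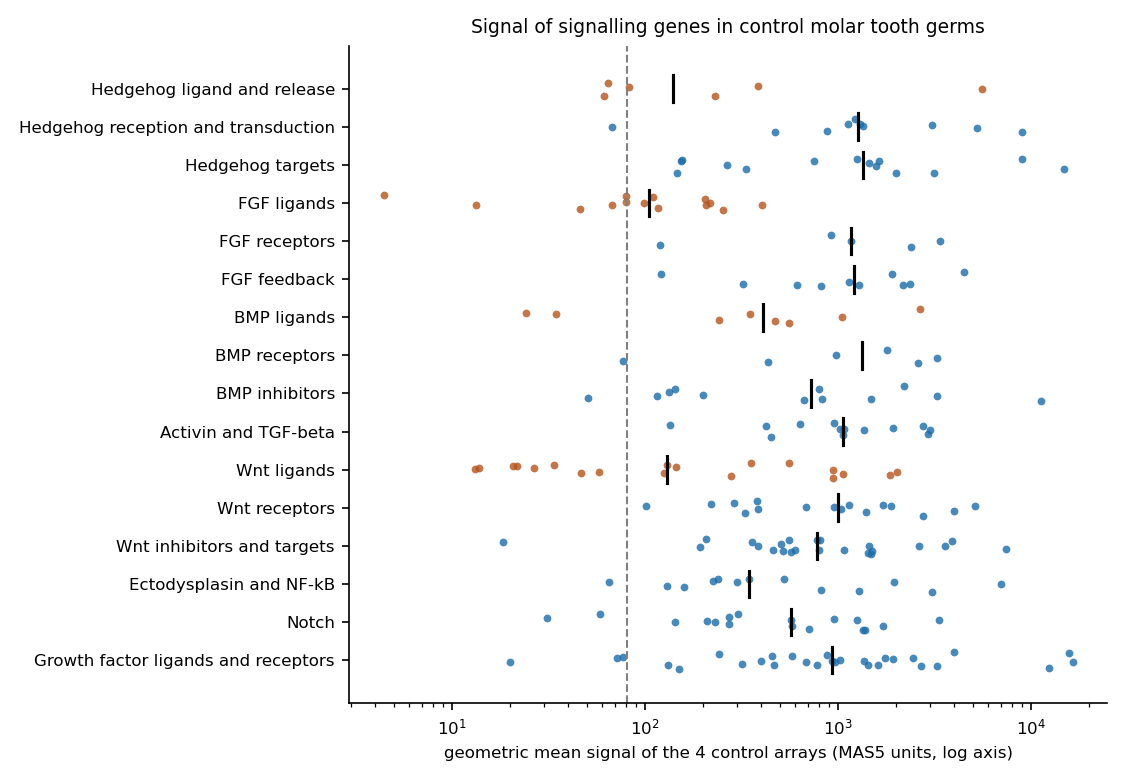
Each dot is the geometric mean signal of 1 gene over the 4 control arrays, on a log axis in MAS5 units, by list. Ligand lists are orange and the others blue, the black bar is the median gene, and the dashed line is the low-signal level of 80.6. The median lies at a signal of 105 for FGF ligands and 130 for Wnt ligands, at 409.6 for BMP ligands, and at 347 or higher for every list in blue.

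In the Hedgehog pathway Shh was the ligand gene with a clear signal. Shh read 4701, 7117, 4562 and 6443, a mean of 12.45 ± 0.32 on the log2 scale and the 96.9th percentile of all genes. The signals of 40-1a replicate 2 and PBS replicate 2 were higher than those of the other pair. The other Hedgehog ligands lay near the level: Ihh, the ligand of cartilage growth, exceeded it on 1 array and Dhh, the ligand of peripheral nerve sheaths and gonads, on 2. Disp1, which releases the lipid-modified ligand from the cell, read 312, 425, 320.2 and 529, and Hhat, the enzyme that palmitoylates it, read 252, 194, 267 and 224.

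Reception and response genes of the pathway had strong signals. Ptch1, the receptor that holds Smo inactive until ligand binds and itself a target of the pathway, read 11322, 7180, 9611 and 8474, with its lowest signal on 40-1a replicate 2. Gas1, a coreceptor, read 5139, 4527, 7826 and 4237. Smo, the membrane protein that relays the signal, varied little, with 3367, 3162, 2940 and 2888 and a mean of 11.60 ± 0.10 on the log2 scale. Gli1, the target and effector that reports the strength of the signal, read 1196, 1586, 1070 and 2143, and its highest array was 2.00 times its lowest. Gli2 and Gli3, the effectors that precede it, read at least 1122 and 1146 on every control array. Hhip, a membrane protein that sequesters the ligand, spread further: it read 247, 51.9, 266 and 167 and fell below the level on 40-1a replicate 2 alone. The mean of the 14 Hedgehog targets was lower on that array, at 9.61 on the log2 scale, than on the other 3, which lay at 10.09 to 10.14.

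Among FGF ligands the enamel knot genes were measurable but low in signal. Fgf3 read 429, 344, 305 and 597, highest on PBS replicate 2. Fgf4 read 103, 112, 96.4 and 166, above the level on all 4 arrays and again highest on PBS replicate 2. Fgf20, an early epithelial ligand downstream of ectodysplasin, read 168, 303, 143 and 237. Fgf9 read 186, 200.3, 267 and 221, and Fgf7, a mesenchymal ligand that acts on epithelium, read 301, 154, 441 and 200.4. Fgf10, the mesenchymal ligand that keeps the epithelium dividing, read 68.5, 88.7, 79.7 and 83.5 and exceeded the level on 2 arrays only. Fgf8, a ligand of the earlier dental lamina, stayed between 3.33 and 5.27 on all 4 arrays. Fgfr2, which receives mesenchymal ligands in epithelium, read 3875, 3553, 3323 and 2824, and Fgfr1 read 2259, 2300, 2164 and 2963. Dusp6, a phosphatase that ERK signalling induces and that damps it in turn, gave 4327, 4476, 4592 and 4660, a spread of only 0.05 on the log2 scale.

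The BMP pathway was read through both its ligands and its antagonists. Bmp4, which passes between dental epithelium and mesenchyme as the tooth develops, read 2675, 2132, 2609 and 3401. Bmp7 read 435, 589, 585 and 649 and Bmp2 373, 335, 411 and 302. Bmpr1a, the type I receptor required for tooth morphogenesis, differed little between arrays, with 3452, 3096, 3430 and 3075. Sostdc1, a secreted inhibitor that limits BMP and Wnt signalling around the enamel knot, read 12303, 9416, 11943 and 11923 and ranked 204. The signal on 40-1a replicate 2 lay below those of the 3 others, which were close together. Fst, the activin antagonist follistatin, read 2062, 2380, 2123 and 2282, and the BMP antagonist noggin (Nog) read 141, 123, 123 and 149. All 13 genes of activin and TGF-β signalling lay above the level on all 4 arrays, against 63.5% of all genes. Inhba, the activin βA subunit made by dental mesenchyme, read 932, 294, 912 and 672, lowest on 40-1a replicate 2.

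Wnt ligands were led by Wnt4, Wnt5a and Wnt10a. Wnt4, an epithelial ligand, read 1428, 3983, 1368 and 2140, highest on 40-1a replicate 2. Wnt5a, a mesenchymal ligand, had its lowest signal there, with 2036, 1255, 2254 and 2101. The epithelial ligands Wnt10a, Wnt6 and Wnt7b shared the order of Wnt4, with 40-1a replicate 2 and PBS replicate 2 above the other pair. Wnt10a read 758, 1657, 804 and 1247. Wnt10b, an enamel knot ligand, was weaker, with 117, 89.4, 109 and 214. Wnt1 and Wnt3 lay below the level on all 4 arrays. Secreted inhibitors had stronger signals: Sfrp2 read 8418, 5244, 9453 and 7259 and Wif1 4027, 2708, 4321 and 4835, and both were lowest on 40-1a replicate 2. Lef1, the transcription factor through which β-catenin acts in early teeth, read 1783, 859.6, 1788 and 1594, and the target gene Axin2 read 689.7, 769, 629 and 1120. Of the 22 Wnt inhibitor and target genes above the level on any array, 13 were lowest on 40-1a replicate 2, and their mean there was 9.29 on the log2 scale against 9.70 to 9.73 on the others.

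Ectodysplasin, Notch and growth factor genes completed the signalling picture. Eda, the TNF family ligand whose loss leaves small and missing teeth, read 309, 403, 294 and 396. Its receptor Edar, a gene of the enamel knot, read 236, 226, 213 and 298, and the adaptor Edaradd read 769, 977, 635 and 935. Nfkbia, the inhibitor and target of NF-κB, read 8745, 6190, 7331 and 6089. Of 17 Notch pathway genes 15 (88.2%) lay above the level on all 4 arrays, against 63.5% of all genes. They were led by the ligand Jag1 with 3216, 3265, 4311 and 2728. Hes5, a target in neural tissue, stayed below the level on all 4. Among growth factors the fetal ligand Igf2, which is imprinted, read 15973, 17836, 17759 and 14521. The heparin-binding cytokines Mdk and Ptn read 17704, 13958, 15716 and 16040 and 14013, 10228, 14185 and 11966.

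Transcription factors of the dental mesenchyme were strongly represented, and those that pattern the trunk were not. Of 532 measured transcription factor genes of 9 groups of families, 312 (58.6%) lay above the level on all 4 arrays, against 63.5% of all genes. Of 20 factors of the dental mesenchyme list 16 did, with a median at the 86.7th percentile. Barx1, the homeobox gene that marks molar rather than incisor mesenchyme, read 3696, 3910, 3304 and 6442. Lhx8, a LIM homeobox factor of the first arch mesenchyme, read 4410, 1704, 4605 and 3414, and its partner Lhx6 read 2226, 1010, 2046 and 2398. Msx1, required for progress beyond the bud stage, read 2614, 2257, 2452 and 5649, with PBS replicate 2 above the 3 others. Pax9, also required at the bud stage, read 2119, 1096, 2059 and 1397. Prrx1, a general factor of craniofacial and limb mesenchyme, spread the most of these, with 8308, 2221, 7921 and 5373. Lhx6, Lhx8, Pax9, Prrx1 and Msx1 were all lowest on 40-1a replicate 2, while Barx1 and Pitx1 were not. Hand2, a factor of the distal jaw midline, lay below the level on all 4 arrays. The list's median SD was 0.454 on the log2 scale, and 0.267 without 40-1a replicate 2.

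Factors of the dental epithelium were represented by 17 of 19 genes (89.5%) above the level on all 4 arrays, against 63.5% of all genes. Trp63, the p63 gene that all stratified epithelia need, held close to one level, with 4490, 4969, 4161 and 4114. Sox2, a factor of the dental lamina and of epithelial progenitors, read 3217, 4757, 3571 and 3180. Bcl11b, a zinc finger factor of ameloblast development, read 2547, 2794, 2196 and 2369. Klf5, a factor of dividing epithelium, was more variable, with 1478, 4428, 1722 and 2305. The 4 genes were highest on 40-1a replicate 2. Tfap2b, which is on this list but is also a neural crest gene, went the other way, with 2827, 684, 3016 and 2404. Of the 18 listed genes above the level on any array, 11 were highest on 40-1a replicate 2.

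**Figure D2:**
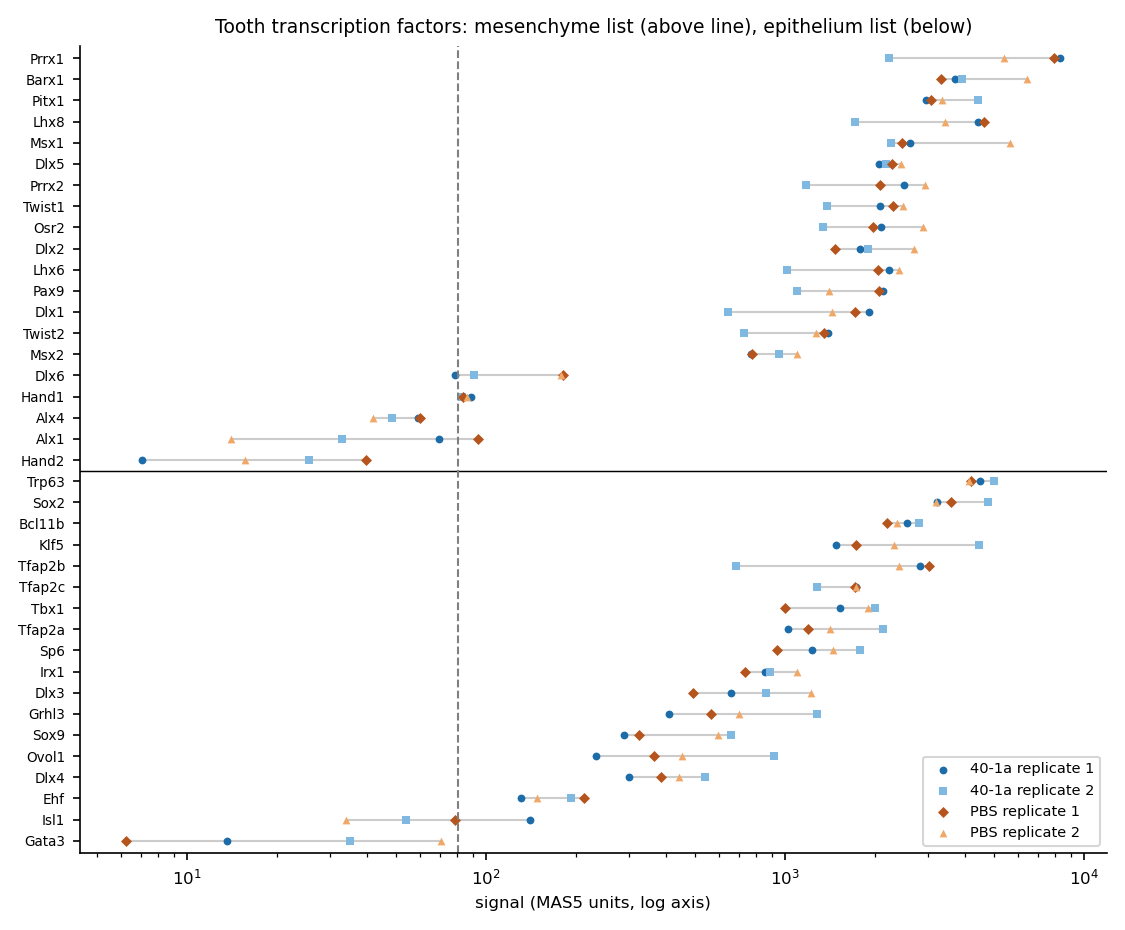
Signals of tooth transcription factors on the 4 control arrays (log axis, MAS5 units), 1 row per gene and 1 symbol per array, with the grey line joining the lowest and highest. The dashed line is the low-signal level of 80.6, and Dlx2, which is on both lists, is drawn once, with the mesenchyme list. Prrx1, Lhx8 and Tfap2b have 40-1a replicate 2 at their low end, and Klf5 and Sox2 have it at their high end.

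Hox genes, which give position along the trunk and are silent in the first pharyngeal arch that forms the jaw, were near the signal of the sensory receptors. Of 33 measured Hox genes 27 lay below the level on all 4 arrays, against 24.4% of all genes. The median of the 33 stood at the 11.6th percentile. Hoxa5 was the exception above the level on every array, with 206, 165, 255 and 134. This rests on 1 of its 2 probe sets, since the other had a geometric mean signal of 13.5, below the level. Hoxd8 and Hoxc6 exceeded it on 3 arrays each.

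By signal alone the leading gene after Sox4 among the 532 factors, which were picked by patterns in their symbols and leave out other families, was Tcf12, an E protein that pairs with tissue-specific bHLH factors, with 10219, 6694, 9153 and 7619. Hif1a, the oxygen-regulated factor, followed with 8427, 7503, 7555 and 7140. Cbfb, the partner of the Runx factors, read 7208, 5033, 6508 and 5839. Smad4, the shared mediator of BMP and TGF-β signals, was the steadiest of the 20 leading factors, with 5065, 4744, 4889 and 4821 and an SD of 0.04 on the log2 scale. The others of the 20 were Id3, Nfix, Maf, Jund, Yap1, Prrx1, Snai2, Id2, Trp63, Barx1, Bhlhb9, Sox2, Tfdp1, Tcf4 and Pitx1. Runx2, a factor of bone and dental mesenchyme, was not analysed here.

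The matrix of the germ was that of young connective tissue with few products of the mineralising tooth. Of 11 fibrillar collagen genes 10 (90.9%) lay above the level on all 4 arrays, against 63.5% of all genes. Col1a2 and Col1a1, the chains of type I collagen, read 13731, 11902, 16427 and 12099 and 8711, 8746, 11060 and 9774. Col2a1, the collagen of cartilage, had a lower signal of 261, 341, 312 and 411. Postn, a matricellular protein of mesenchyme and later of the periodontal ligament, read 23871, 9190, 21617 and 15014. Lum, a small proteoglycan that organises collagen fibrils, read 18049, 4958, 14174 and 10560. Both had their lowest signal on 40-1a replicate 2. Serpinh1, the chaperone that procollagen needs to fold, read 11090, 13111, 13587 and 13754. Basement membrane genes were represented by 22 of 25 (88%) above the level, among them Col4a1 with 7060, 5758, 8566 and 7132. Col4a3 and Col4a4, the collagen IV chains of mature kidney and lung, stayed below it.

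Enamel and dentin genes were mostly below the level. Of 13 measured genes 4 (30.8%) lay above it on all 4 arrays, against 63.5% of all genes. Sparc, a broadly expressed bone and matrix protein, read 9076, 11200, 11545 and 10004. Ibsp, the bone sialoprotein, read 909, 658, 1519 and 1325. Odam, a product of maturing ameloblasts, read 537, 507, 669.8 and 982, and the enamel matrix protein ameloblastin (Ambn) read 456, 198, 424 and 448. Amelx, the gene of amelogenin, read 110.4, 78.9, 87.6 and 105, at the level. Dspp, the gene of the main dentin phosphoprotein, read 3.32, 3.41, 5.60 and 2.08. Enam, Klk4 and Mmp20, which encode an enamel matrix protein and the enamel proteases, lay below the level on every control array.

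**Figure D3:**
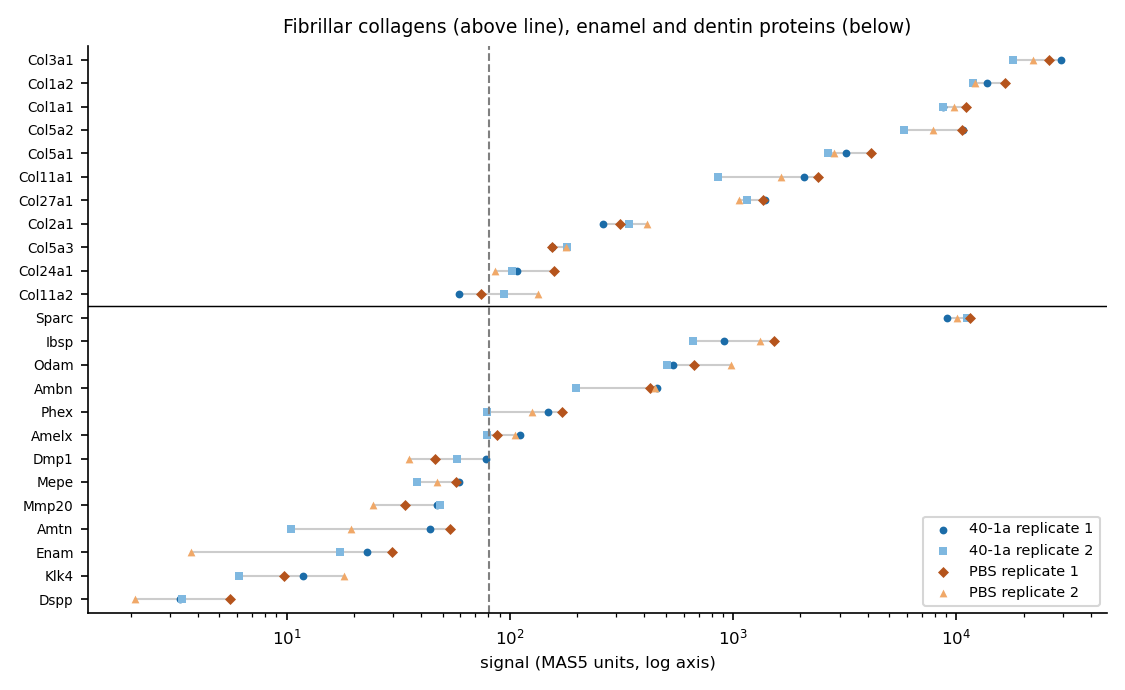
Signals of the 11 fibrillar collagens and the 13 enamel and dentin genes on the 4 control arrays (log axis, MAS5 units), 1 row per gene and 1 symbol per array. The dashed line is the low-signal level of 80.6. Of the collagens only Col11a2 crosses the line, whereas 7 of the 13 tooth matrix genes, from Dmp1 to Dspp, lie wholly below it.

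Marker lists were also read for cell types beside dental epithelium and mesenchyme. A count above the level does not by itself show that a cell type was present, since 63.5% of all genes lay above it on all 4 arrays. Some lists also share members, as Col1a1 is on both the dental mesenchyme and the osteoblast list. Above the level on all 4 arrays were 25 of 25 basal epithelium markers, 22 of 23 dental mesenchyme markers and 15 of 17 enamel knot genes. Also above it were 18 of 21 endothelial, 9 of 11 pericyte and smooth muscle and 17 of 19 macrophage and leukocyte genes. Csf1r, the receptor that macrophages need to survive, read 1501, 925, 1973 and 957. Cd3e, of T cells, stayed below the level on all 4. Plvap, of fenestrated vessels, read 1049, 492, 1119 and 714, and Rgs5, of pericytes, read 1734, 741, 1686 and 1594. Of 15 erythroid genes 7 (46.7%) lay above the level on all 4 arrays, a share below that of all genes, and the embryonic globin Hbb-y read 4984, 1030, 2656 and 1494.

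Nerve, pigment and cartilage markers were sparser, with 50%, 25% and 47.1% above the level on all 4 arrays against 63.5% of all genes. Of 16 genes of Schwann cells and nerve 8 lay above the level on all 4 arrays, and Cdh19 and Pou4f1 lay below it on all 4. Of 8 melanocyte genes 2 did so, Kit and Mitf, which other cells express too, while the pigment genes Tyrp1 and Mlana lay below the level. Of 17 cartilage genes 8 did so, and the cartilage matrix genes Matn1 and Col10a1 stayed below the level. For bone, 7 of 9 osteoblast genes did so, with Alpl, the phosphatase of mineralising cells, at 926, 1054, 1035 and 1373 and Sp7 at 495, 421, 500.3 and 595. On the same list Dmp1 stayed below the level on all 4 arrays and Phex exceeded it on 3. Of 8 osteoclast genes 4 (50%) did so, with Ctsk at 1646, 1127, 1704 and 1956. Another 3 stayed below the level on all 4 arrays, among them Ocstamp and Calcr. Salivary gland and tongue genes had 1 of 10.

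Skeletal muscle and keratinising epithelium varied the most among these lists. Of 22 muscle genes 12 (54.5%) lay above the level on all 4 arrays, against 63.5% of all genes, and of 22 suprabasal genes 18 did. Actc1, the actin of heart and embryonic muscle, read 452, 4624, 2642 and 808. Acta1, of skeletal muscle, read 175, 2284, 663 and 468, and Mylpf, a fast muscle light chain, read 140.0, 1410, 553 and 269. The summed signal of the 22 muscle genes was 2508 on 40-1a replicate 1, 3754 on PBS replicate 2, 8036 on PBS replicate 1 and 18692 on 40-1a replicate 2. Krt13 and Krt4, keratins of the oral mucosa above the basal layer, read 5294, 25071, 10304 and 10310 and 1408, 13064, 5653 and 2391. The 22 suprabasal genes summed to 29639 on 40-1a replicate 1 and to 113480 on 40-1a replicate 2, with the PBS arrays between. The part of these tissues in the levels of other genes was not tested.

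**Figure D4:**
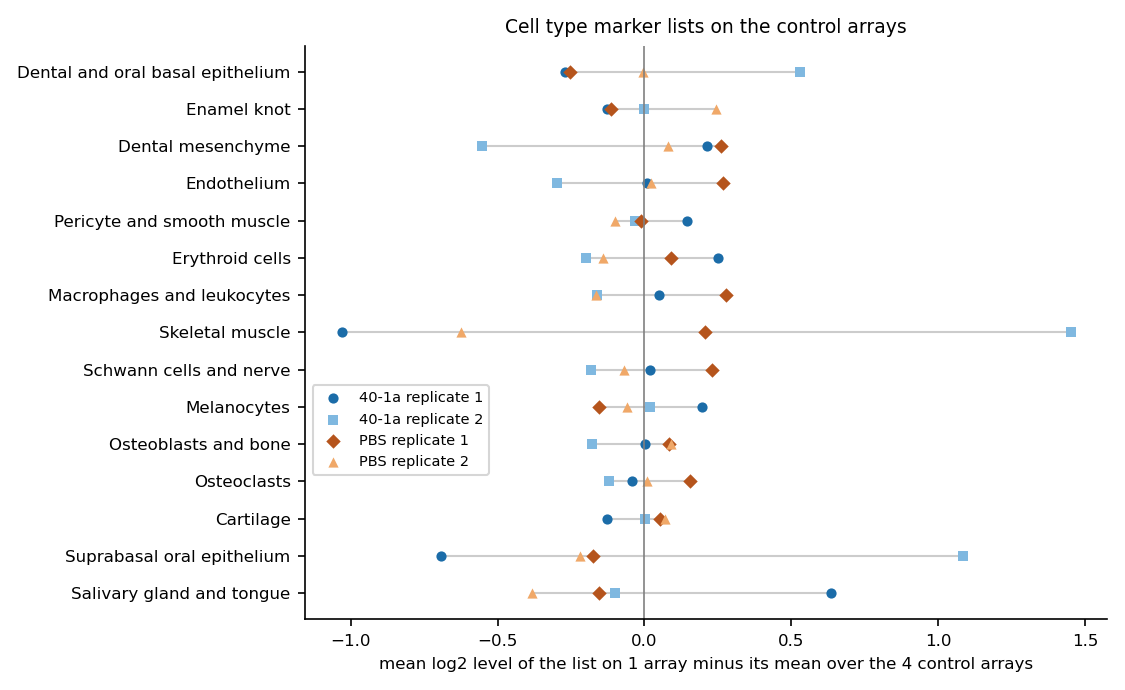
Mean log2 level of each marker list on each control array, given as the difference from the list's mean over the 4 arrays (log2 units). The symbols of skeletal muscle range from an array mean of 6.62 to 9.10 and those of suprabasal epithelium from 8.86 to 10.64, with 40-1a replicate 2 highest in both and lowest for dental mesenchyme.

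Genes of cell division formed a contrast to these, with high and even signals. All 31 genes of mitosis and DNA replication lay above the level on all 4 arrays, against 63.5% of all genes. Their median stood at the 91.1st percentile, with a median SD of 0.152 on the log2 scale. Pcna, the sliding clamp of DNA polymerase, read 17390, 12371, 15042 and 13711. Mcm7, of the replicative helicase, read 9701, 7080, 8582 and 8181. Ccnd2 and Ccnd1, the D cyclins, read 17774, 12950, 15987 and 13560 and 2970, 3129, 3146 and 3371. Cdk inhibitors were present beside them: Cdkn1c read 10346, 12565, 13715 and 9172, and Cdkn1a, which marks the enamel knot, read 997, 1975, 949.9 and 1321. Cdkn2a lay below the level on all 4. Of 19 imprinted growth genes 15 lay above the level on all 4 arrays, with the zinc finger factor Plagl1 at 19380, 16410, 20601 and 12980 and Mest at 20000, 13146, 19822 and 16272. All 22 genes of the primary cilium, the organelle through which vertebrate cells receive Hedgehog signals, lay above the level on all 4 arrays.

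The spread between control arrays was small for most genes and large for a limited set. Among the 11544 genes above the level on all 4 arrays the median SD was 0.204 on the log2 scale, and 44 (0.381%) exceeded 1. Among the 13748 genes above it on at least 1 array the median was 0.232 and 381 (2.77%) exceeded 1. Of the 20 genes with the largest SD, 8 are genes of striated muscle or its formation (Tnni1, Mymx, Myom2, Myh8, Myl1, Tnni2, Actc1 and Acta1) and 3 belong to the cornified envelope of stratified epithelium (Sprr3, Cnfn and Sprr1b). Tnni1, a slow muscle troponin, read 19.6, 611, 158 and 70.2. Sprr3 read 129, 2292, 326 and 262. Both were highest on 40-1a replicate 2 and lowest on 40-1a replicate 1. Not all followed that array: Kera, a corneal and connective tissue proteoglycan, read 30.4, 72.1, 288 and 5.87, highest on PBS replicate 1, and Zdhhc12 read 335, 358, 33.7 and 458, low on PBS replicate 1 alone. The other genes of the 20 were Speer4a, Mt3, Gm11190, Lypd2, Cubn, 1700128F08Rik and Samd10. The 5 steadiest genes above the level on all 4 arrays were Rmdn1, Robo4, Cox5a, Commd6 and Psmb1. Cox5a, a subunit of cytochrome c oxidase, read 13272, 13193, 13230 and 13002.

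By list, muscle genes had a median SD of 1.12 and suprabasal genes of 0.891. Without 40-1a replicate 2 these were 0.826 and 0.513. Dental mesenchyme markers had 0.457 and basal epithelium markers 0.366, and without that array 0.222 and 0.177. The median of all genes fell to 0.201 without it. Genes that varied among the control arrays also varied among the 4 blocked arrays, which were not used to choose them. The 200 genes with the largest control SD had a median SD of 0.732 there, against 0.255 for all 13748. Across all these genes the control and the blocked SD had a Pearson's r of 0.614 and a Spearman's rho of 0.623. The genes share arrays and probe set noise, so these correlations are a description. Egr3, an immediate early gene chosen after its values were seen, read 2417, 328, 2602 and 2098 on the control arrays, lowest on 40-1a replicate 2. On the blocked arrays it read 5829 and 249.95 on 5E1 replicates 1 and 2 and 1402 and 252 on cyclopamine replicates 1 and 2, so it was low on 3 arrays, each numbered replicate 2.

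**Figure D5:**
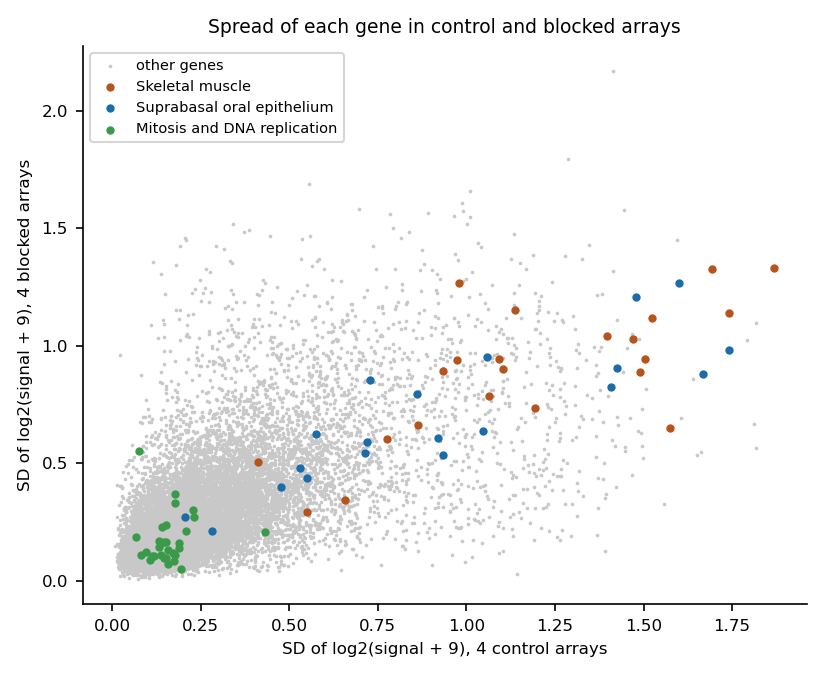
SD of each gene's log2 level over the 4 control arrays (horizontal) and over the 4 blocked arrays (vertical) for the 13748 genes above the level on at least 1 control array, in log2 units. Skeletal muscle and suprabasal genes lie to the right, with control medians of 1.12 and 0.891, and genes of mitosis and DNA replication lie at the lower left, with a median of 0.152.

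The sequence before the start was read for genes at both ends of these orders. The motif TATAAA, searched on the gene's strand in the 60 bases before each annotated start (RefSeq, GRCm38.p6), was present at 944 of 32851 starts (2.87%). Among genes above the level on all 4 arrays it was present at 1.42% of starts, and among genes above it on no array at 6.06%. For the 10% of genes with the highest signal the share was 1.93%, and for the highest 1% it was 4.5%. Ribosomal protein genes held the motif at 2 of 58 starts (3.45%), so strong signal did not go with its absence throughout. Among the 200 genes with the largest spread, drawn from all genes above the level on at least 1 array, it was present at 18 of 167 starts (10.8%). Within the genes above the level on all 4 arrays the gap was smaller. There the 10% with the largest spread had it at 35 of 1107 starts (3.16%), and the steadiest 10% at 0.756%. In the suprabasal list 8 of 14 starts held it. The Sprr genes among them are related copies, so these are not independent. The motif was chosen with the ranking known. Among the 20 genes with the largest spread it was present at 3 of 15 starts, so most of them lack it. Windows of 4 variable genes that hold it are shown first, with TATAAA in capitals. Those of 3 ribosomal protein genes with strong signals, picked among the ones that lack it, follow. The variable genes are Sprr3 (chr3:92458721-92458780, minus strand), Sprr1b (chr3:92438780-92438839, minus), Sprr1a (chr3:92485882-92485941, minus) and Acta1 (chr8:123894776-123894835, minus). The ribosomal protein genes are Rps3a1 (chr3:86142669-86142728, minus), Rps10 (chr17:27635245-27635304, minus) and Rplp0 (chr5:115559407-115559466, plus).
Sprr3: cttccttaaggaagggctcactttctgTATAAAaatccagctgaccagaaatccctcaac
Sprr1b: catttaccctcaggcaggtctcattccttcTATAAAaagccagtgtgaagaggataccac
Sprr1a: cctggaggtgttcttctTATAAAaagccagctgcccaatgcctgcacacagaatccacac
Acta1: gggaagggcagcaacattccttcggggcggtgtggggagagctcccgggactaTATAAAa
Rps3a1: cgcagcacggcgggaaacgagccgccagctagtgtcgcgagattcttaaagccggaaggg
Rps10: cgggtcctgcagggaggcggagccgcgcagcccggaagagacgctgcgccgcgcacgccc
Rplp0: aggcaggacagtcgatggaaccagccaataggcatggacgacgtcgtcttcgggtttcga
Sprr1a read 196, 2106, 421 and 395, with the pattern of Sprr3. The dinucleotide CG was counted in the 300 bases around each start. Among genes above the level on all 4 arrays, the median was 22 for the steadiest 10% and 17 for the 10% with the largest spread. The median was 7 for the 200 most variable genes, against 16 for all genes on the array and 7 for all starts in the table. For ribosomal protein genes it was 22.5. A match is a description of these letters and not a binding site.

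The control groups were compared to see whether they could be described as 1 set. By limma, with Benjamini-Hochberg adjustment over 12999 genes, no gene differed between 40-1a and PBS (0% called), and the smallest adjusted p was 1. At an unadjusted p under 0.05 there were 88 genes (0.677%), of which 0.3% of those tested were higher in 40-1a and 0.377% lower. Of 593 list genes in the fit 6 did so (1.01%). The named list members with the smallest p were Egfr, higher in 40-1a by 0.62 on the log2 scale (SE 0.20), and Ibsp, with a difference of -0.87 (SE 0.28), and both had an adjusted p of 1. The 25 basal epithelium markers all had higher means in 40-1a, with a median difference of 0.252. Of 18 dental mesenchyme factors 15 had lower means there, with a median of -0.43. The median difference over all 12999 genes was -0.003. In both lists 40-1a replicate 2 is the array that stood apart. The intervals were wide: the 95% interval of the difference ran from -0.53 to 0.71 for Shh and from -1.97 to 0.74 for Msx1. A p past the threshold was not found, which does not show that the groups are alike.

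The controls were also set against the 4 arrays of blocked germs. No gene passed an adjusted p of 0.05 by limma (0% of 12999), with 160 (1.23%) at an unadjusted p under 0.05, 0.846% of all genes higher in the controls and 0.385% lower. Of the 593 list genes 19 did so (3.2%). Ptch1 was higher in the controls by 1.29 (SE 0.21), Gli1 by 1.07 (SE 0.28) and Sostdc1 by 0.78 (SE 0.14) on the log2 scale, each with an adjusted p of 1. Shh itself differed by -0.24, with a 95% interval from -0.68 to 0.20, and Smo by 0.01, from -0.21 to 0.24. In the same contrast 23 of 25 basal epithelium markers had lower means in the controls, with a median difference of -0.255, and 19 of 20 skeletal muscle genes did, with a median of -0.563. Of 23 dental mesenchyme markers 21 had higher means, with a median of 0.336. The part of these tissues in the differences of other genes was not tested. Bmp2, Odam and Slc2a1 had the lower signal in the controls, by differences of -0.50 (SE 0.16), -0.52 (SE 0.18) and -0.33 (SE 0.12). All 18 genes of glycolysis and the response to low oxygen had lower means in the controls, with a median of -0.218. Of these, 1 had an unadjusted p under 0.05 by limma. Over all 12999 genes the median difference was -0.005. Members of a list were read on the same arrays, so a count of directions is not a count of independent results. Of 14 Hedgehog targets 11 had higher means and 3 lower, with a median of 0.721. The lists were chosen with earlier results of these data known, so the counts and shares of list genes are a description.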

How the data were processed

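The deposited table holds probe set intensity on a linear scale for 8 arrays, which the authors computed in MAS5, per the submitters' processing notes; neither version nor scaling target is given in the sources used here. The mean after trimming 2% at each end was 500 on every array, so no scaling was added. Of 45101 probe sets 64 were controls. The 2016 platform annotation gave 1 gene to 34945, several to 932 and none to 9160, and only the first were used. Of these, 34741 had a gene ID found in RefSeq. The number of arrays limits the precision.

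Values were taken as log2(signal + 9), a scale that understates changes of weak genes. Each gene kept the probe set with the highest mean over the 4 control arrays. The 46 gene lists hold 754 different genes, of which 701 were measured; they, the members and the rule for named genes were chosen with earlier results of these data known. That rule takes the 25 genes of highest mean and the 15 highest outside 7 housekeeping families, up to 4 highest and 2 lowest genes of each list, the 20 highest transcription factors, the 20 genes of largest and 5 of smallest SD, 20 tooth genes, Hox genes above the level on all 4 arrays, and the 3 list members of smallest p in each direction of each contrast. Further list members were named as examples after their values were seen.

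Contrasts were fitted with limma 3.58.1 in R 4.3.3 (lmFit, contrasts.fit, eBayes with trend) as 4 group means over all 8 arrays, with 4 residual degrees of freedom. Here the probe set with the highest mean over 8 arrays was kept, which differed for 214 genes, and weak genes were filtered out at the 40th percentile of probe set means (log2 6.12). Benjamini-Hochberg adjustment covered the 12999 genes tested. The p-values measure only the spread between these samples, since the labels do not say which litters they came from. The fit was tested on simulated data. Alternatives varied the scaling, pseudocount, probe set rule, level, filter, variance model, replicate block and arrays.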

Additional observations from a re-analysis of the deposited data

Results flagged for a closer look

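Of 122 values examined over the 4 control arrays, 8 had 1 array so far from the rest that its gap to the nearest other, divided by the whole range, exceeded Dixon's 95% limit for 4 values. Chance flags about 1 in 20 such groups, and 8 of 122 lies near that rate, so each flag is only a description. That rate does not hold for Sprr1b, 1700128F08Rik and Zdhhc12, which were taken for their large SD over the same 4 arrays. On 40-1a replicate 2 the mean level of the Hedgehog targets (0.917) and of the Wnt inhibitors and targets (0.923) was low, as were Sostdc1 (0.883) and 1700128F08Rik (0.896), and Sprr1b (0.887) was high. The Hedgehog target mean was 9.61 there on the log2 scale, against 10.09, 10.12 and 10.14 on PBS replicate 1, 40-1a replicate 1 and PBS replicate 2. Rplp2 (0.891) was high on 40-1a replicate 1. Zdhhc12 (0.872) was low on PBS replicate 1, and Msx1 (0.84) was high on PBS replicate 2.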

How the results depend on the processing

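The number of genes above the low-signal level on all 4 arrays ranged from 11168 to 12266 over the settings tried, against 11544. With the mean of a gene's probe sets in place of the strongest, 57 of the 100 highest genes were shared with the ranking given. Under the other settings 82 to 100 were. The median percentile of a list moved by up to 21.8 points with that mean. Without probe sets whose names end in x_at or s_at, where a gene had others, it moved by up to 15.8. Under the other settings it moved by at most 9.93. The 20 genes of largest spread depended on the settings: 8 were shared at a pseudocount of 1, 10 at a pseudocount of 32 and 5 to 14 when 1 control array was left out, with 9 shared without 40-1a replicate 1 and 5 without 40-1a replicate 2. An alternative chosen after seeing the data, ranking only genes above the level on all 4 arrays, shared 4. The contrast of 40-1a and PBS called 0 genes in every alternative by limma, with 41 to 357 at an unadjusted p under 0.05. For controls against blocked arrays, the replicate block called 1 gene, Ptch1, with an adjusted p of 0.0306, and 527 genes had an unadjusted p under 0.05; in the other alternatives its adjusted p was 0.846 or more and none was called. Deviations of arrays with the same replicate number correlated at 0.324 to 0.592 in 5 of 6 pairs of groups and at 0.00164 between cyclopamine and PBS. The labels name no pairing, so this is a hint from the data and not from the design. Genes with several probe sets, 7239 of those above the level, had a median 6.14-fold gap between their strongest and weakest probe set, which limits any reading of the ranks. With 2 arrays per group the fits rest on 4 residual degrees of freedom.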

Other observations

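Adhesion and metabolic genes were also among the stronger signals. Of 25 adhesion and junction genes 23 (92%) lay above the low-signal level on all 4 control arrays, against 63.5% of all genes. Gja1, a connexin of gap junctions, had signals of 22303, 18303, 19735 and 16872 in the order 40-1a replicate 1, 40-1a replicate 2, PBS replicate 1 and PBS replicate 2. Dsp, the desmosomal protein desmoplakin, was highest on 40-1a replicate 2, with 12196, 17227, 11318 and 12256. Of 18 genes of glycolysis and the response to low oxygen 16 lay above the level, and Pgk1, a glycolytic enzyme, varied little, with an SD of 0.09 on the log2 scale. Of 19 immediate early and heat shock genes 17 did so. Fosl1 lay below the level on all 4 arrays. Erbb3, a receptor of both nerve sheath cells and epithelium, read 929.7, 1773, 1023 and 1229. Ntrk2, a neurotrophin receptor, had a mean signal of 2747 ± 512 (SD, n = 4 arrays).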
